A study of Mus musculus with 24 samples.

Results

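Cortical neurons that had lost Smarcc2 and were given back the wild-type gene were compared, at rest, with neurons that carried a non-targeting guide RNA. The comparison rests on 4 of the 24 RNA sequencing libraries of the series, chosen by their titles: 2 from knockout cultures that received wild-type Smarcc2 again (WT) and 2 from cultures with the non-targeting guide (NT). All 4 were primary neurons from the cortex of mouse embryos at embryonic day 16.5, grown for 18 days in vitro, and the labels' protocols treat the cortex of each embryo as a biological replicate. Before harvest their activity was blocked overnight by 1 µM tetrodotoxin, a sodium channel toxin, together with 100 µM D-AP5, an NMDA receptor antagonist. Beside them stand 3 resting knockout cultures with an empty vector (vector). Cultures depolarized with 50 mM KCl for 30 min after the same silencing were 2 NT, 3 vector and 3 WT. Knockout cultures given a mutant Smarcc2, 3 resting with S586E and 2 depolarized with S586A, were fitted with them and enter some ranges. The labels do not say whether NT cultures received a vector, nor which guide made the knockout or what drove the added gene, and each group is a mixed culture. The guide, the added construct and the level of Smarcc2 therefore cannot be told apart where WT is set against NT.

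Smarcc2, also called BAF170, is a core scaffold subunit of BAF complexes, which use ATP to move nucleosomes and so change access to promoters and enhancers. Its close paralogue Smarcc1 (BAF155) fills the same place in the complex. BAF complexes exchange subunits as neural progenitors become neurons, and in the cortex they are known for roles in progenitor division, the differentiation of neurons and glia, and transcription that follows synaptic activity.

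The 4 libraries held 20662492 to 23835270 estimated counts, and 20940 genes entered the tests. Levels are given as CPM, counts scaled to the library size with TMM factors, which can be compared between libraries for 1 gene but not between genes. Differences are log2 fold changes from edgeR's quasi-likelihood test, and a gene was called at a Benjamini-Hochberg adjusted p under 0.05 over all genes tested. On the per-length scale (TPM), the neuronal markers Rbfox3 (67.5 to 111 TPM) and Slc17a7, the vesicular glutamate transporter of cortical excitatory neurons (383 to 552 TPM), were high in all 4 libraries. The interneuron enzyme Gad1 was at 23.2 to 28.1 TPM, the astrocyte filament Gfap at 24 to 62.5 TPM, and the endothelial marker Cldn5 at 0.

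Smarcc2 (ENSMUSG00000025369.15; GRCm38, chromosome 10, 128459248 to 128490482, plus strand, protein-coding) was at 265 and 237 CPM in the NT libraries and at 816 and 756 CPM in the WT libraries. The vector libraries held 47.1, 49.8 and 64.1 CPM. The addback thus stood above NT in both libraries, by a log2 fold change of 1.65 (SE 0.155, adjusted p 5.75e-05, edgeR), and it was called in all 13 alternative analyses. Smarcc1 was at 88.5 and 102 CPM in NT and 87.4 and 88.8 CPM in WT, which did not pass (log2 fold change -0.11, adjusted p 0.846, edgeR).

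In the authors' estimates, the split of this level over transcripts differed from that of the NT cultures. The annotation holds 3 long coding transcripts of Smarcc2, which share most exons. Smarcc2-202 alone contains a coding exon of 93 bases, number 18 of its 29, at chr10:128481682-128481774 on the plus strand of GRCm38. Smarcc2-203 lacks it, runs 342 bases further into a late exon, and ends in a last exon of 461 bases, against 1227 bases in Smarcc2-202. The exon is printed from the GENCODE M21 transcript, 5′ to 3′, because it separates the transcript that stayed low from those that rose above NT. Capitals mark the exon, and 15 bases of its neighbours on each side are in lower case.
Smarcc2-202 exon 18: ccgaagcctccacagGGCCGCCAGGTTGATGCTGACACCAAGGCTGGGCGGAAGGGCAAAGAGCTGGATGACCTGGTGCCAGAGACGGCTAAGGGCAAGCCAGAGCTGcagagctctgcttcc
The exon is a whole number of codons long (31). Smarcc2-202 was the most abundant transcript in NT, at 158 and 134 CPM, or 59.5% and 56.5% of the gene's estimated counts. In WT it was at 8.08 and 14.7 CPM, or 0.990% and 1.94%, below the 19.5 to 27.2 CPM of the vector libraries. Smarcc2-203 went the other way. It was at 25.2 and 35.2 CPM in NT, 1.78 to 9.73 CPM in vector, and 486 and 458 CPM in WT, where it held 59.6% and 60.6% of the counts. Smarcc2-201, which lacks the exon too, was at 77.0 and 65.9 CPM in NT and 268 and 244 CPM in WT. Across all 10 libraries with an added Smarcc2, wild-type or mutant and in either state, Smarcc2-202 lay between 8.08 and 29.3 CPM, against 134 to 162 CPM in the 4 NT libraries. These are the authors' estimates from reads shared between transcripts, they were not tested, and the sequence of the added gene is not in the sources used here.

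**Figure D1:**
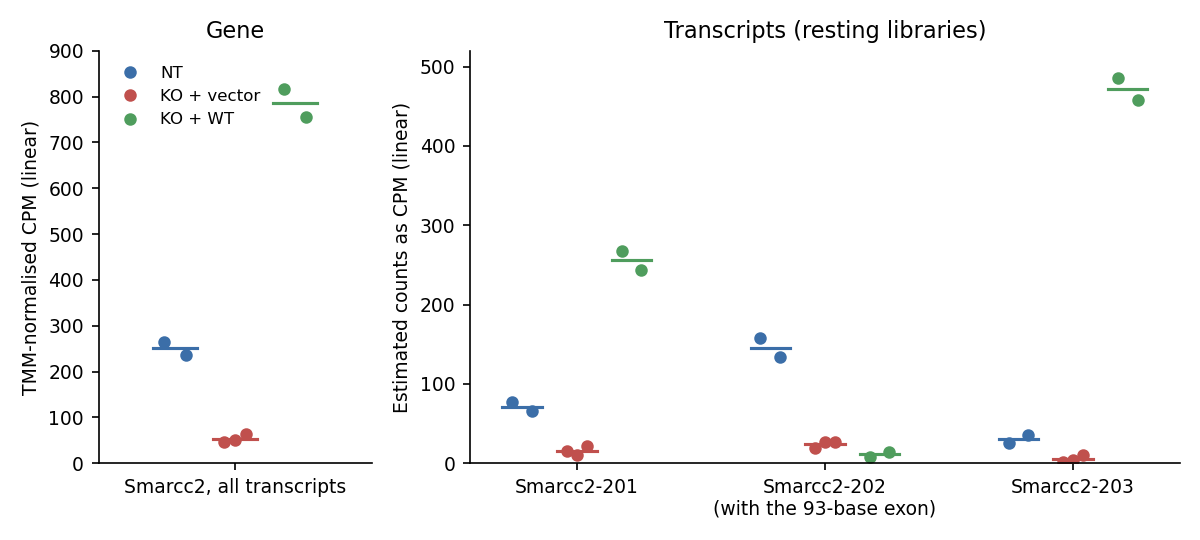
Smarcc2 in resting libraries, as CPM on linear axes that start at 0. Points are libraries (2 NT, 3 vector, 2 WT) and bars their means. The left panel sums all transcripts, and the right panel shows that Smarcc2-202, which holds the 93-base exon, is high only in NT (158 and 134 CPM) while Smarcc2-203 is high only in WT (486 and 458 CPM).

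Few genes separated WT from NT. The test called 22 of 20940 genes (0.105%), with 16 higher (0.0764%) and 6 lower (0.0287%) in WT, and 1650 (7.88%) had an unadjusted p under 0.05. The resting vector cultures differed from the same NT libraries in 1236 genes (5.9%), 446 higher (2.13%) and 790 lower (3.77%). Set directly against vector, WT gave 3 calls (0.0143%), Smarcc2 higher (0.00478%) and Pgk1 and Fras1 lower (0.00955%), with 2317 genes (11.1%) at an unadjusted p under 0.05. DESeq2 called 115 genes (0.549%) for WT against NT, 1640 (7.83%) between vector and NT, and 178 (0.85%) between WT and vector. The 22 calls of WT against NT became 6 without NT replicate 1, 3 without NT replicate 2, 2 without WT replicate 1 and 17 without WT replicate 2, so a missing call says little about a gene. Vector against NT gave 100 calls without NT replicate 2, and WT against vector 23 without vector replicate 3. The balance of the calls was not stable either. The split of 16 higher and 6 lower was 47 and 68 with DESeq2, 158 and 220 without the filter on low counts, and 16 and 2 with offsets for GC content.

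Pgk1, a glycolytic enzyme on the X chromosome, and Fras1, an extracellular matrix protein, were the 2 genes that edgeR called lower in WT than in vector. DESeq2 called 90 lower. Pgk1 was at 512 and 570 CPM in NT, at 1270 to 1290 CPM in vector, and at 571 and 588 CPM in WT. The WT libraries sat just above NT and far below every vector library. The log2 fold change of WT was -1.14 against vector (adjusted p 1.92e-05, edgeR) and 0.10 against NT (SE 0.111, adjusted p 0.908, edgeR). Fras1 was at 9.85 and 10.0 CPM in NT, 17.5 to 19.4 CPM in vector, and 8.97 and 9.11 CPM in WT, so that vector stood apart from both other groups.

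Gene lists were read by their counts and medians, side by side in the 3 resting comparisons, with no test of a list. Vector and WT are both set against the same 2 NT libraries here, so the 2 columns share that error, and only WT against vector is free of it. The median over all genes tested was -0.002 in WT and 0.019 in vector, and it was -0.011 between WT and vector. Since 0.105% of all genes were called in WT against NT, a list with no call there is at the background, and the medians and the direct comparison with vector carry the description. In vector against NT at rest, 2.13% of all genes were called higher and 3.77% lower, which is the background for list counts there. At an unadjusted p under 0.05, 3.32% were higher and 4.56% lower in WT against NT. For vector against NT under KCl, 0.726% were called higher and 1.95% lower.

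Ribosomal protein genes, which build the cytoplasmic ribosome, had a median below NT in vector and above it in WT. Of the 79 tested, 9 were called lower in vector, against 3.77% of all genes, and none in WT. The median was -0.20 in vector and 0.10 in WT. Under KCl vector had no call and a median of -0.065. The WT median ran from -0.01 without NT replicate 1 to 0.21 without NT replicate 2, and 67 of the 79 lay above 0. WT exceeded vector in all 79 (median 0.30), 60 of them at an unadjusted p under 0.05, against 5.88% of all genes, though none passed the adjusted threshold. Rpl13, of the large subunit, was at 157 and 188 CPM in NT, 106 to 142 CPM in vector, and 179 and 188 CPM in WT. Rps26, of the small subunit, was at 84.7 and 106 CPM in NT, 65.5 to 68.7 CPM in vector, and 84.7 and 102 CPM in WT. In both genes the WT libraries lay within the NT range, and the vector libraries lay below it.

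Glycolysis and pyruvate metabolism showed the same arrangement. Vector had 9 lower calls and 1 higher (Pgk1) among 28 genes, against 3.77% and 2.13% of all genes, and WT had none. The median was -0.30 in vector and -0.04 in WT (-0.13 without NT replicate 1 and 0.06 without NT replicate 2). For WT against vector it was 0.31, and 15 were higher at an unadjusted p under 0.05, against 5.88% of all genes. Under KCl vector had 4 lower calls and 1 higher, with a median of -0.16. Slc2a1, the glucose transporter GLUT1, was at 58.0 and 108 CPM in NT, 28.2 to 40.6 CPM in vector, and 58.3 and 82.4 CPM in WT. The 2 NT libraries themselves differed nearly as much as the groups. Mpc1, a subunit of the mitochondrial pyruvate carrier, was steadier, at 109 and 116 CPM in NT, 69.9 to 80.3 CPM in vector, and 93.3 and 104 CPM in WT. Pfkl, the liver form of phosphofructokinase, had a log2 fold change of -1.18 in vector (adjusted p 0.00769, edgeR) and -0.31 in WT (SE 0.263, adjusted p 0.852, edgeR).

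Cholesterol synthesis had a median between those of vector and NT. Of 25 genes, 8 were called lower in vector, against 3.77% of all genes, and none in WT. The medians were -0.32 and -0.17, with 0.19 for WT against vector. Under KCl vector had 1 lower call and a median of -0.13. The median in WT rested on NT replicate 2, without which it was -0.04. Hmgcs1, which makes HMG-CoA, was at 408 and 437 CPM in NT, 226 to 263 CPM in vector, and 342 and 307 CPM in WT. Srebf2, the transcription factor of the pathway, was at 225 and 231 CPM in NT, 155 to 179 CPM in vector, and 181 CPM in both WT libraries. For Hmgcs1 and Srebf2, WT lay between the other groups without reaching either. The difference of WT from NT did not pass for them (adjusted p 0.547 and 0.244, edgeR).

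Genes of synaptic adhesion and axon guidance were mostly higher in vector and near NT in WT at rest. Among 47 genes, 14 were called higher and 3 lower in vector, against 2.13% and 3.77% of all genes, and none in WT. Above 0 lay 36 of them in vector and 21 in WT. The medians were 0.30, -0.01 and, for WT against vector, -0.25. Vector was not mostly higher under KCl, where its median was -0.006, with 2 higher and 4 lower calls and 22 of 47 above 0. Unc5c, a netrin receptor, was at 30.7 and 24.2 CPM in NT, 49.9 to 56.6 CPM in vector, and 37.3 and 29.3 CPM in WT. Ntng2, a membrane-bound netrin, was at 29.9 and 27.0 CPM in NT, 52.3 to 75.8 CPM in vector, and 45.5 and 34.2 CPM in WT. WT lay below every vector library for both genes, and above both NT libraries for Ntng2. Slit3, a secreted guidance ligand, was 1 of the 3 lower genes and stayed low, at 44.5 and 58.2 CPM in NT, 25.9 to 30.6 CPM in vector, and 27.8 and 33.1 CPM in WT (log2 fold change -0.75, adjusted p 0.102, edgeR). The 56 clustered protocadherins, cell-surface identity proteins of neurons, had medians of 0.16 in vector and -0.02 in WT. In vector 3 of them were called higher and 1 lower, against 2.13% and 3.77% of all genes. Under KCl their vector median was 0.035, with 1 lower call.

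Receptors and channels differed among themselves. The 35 glutamate receptor genes had 6 higher and 2 lower calls in vector and none in WT (medians 0.06 and -0.06, the latter 0.06 without NT replicate 1). The vector shares over all genes were 2.13% and 3.77%. Under KCl vector had no higher and 3 lower calls among these receptor genes, with a median of -0.07. Grm7, a presynaptic metabotropic receptor, was at 88.7 and 74.1 CPM in NT, 116 to 126 CPM in vector, and 101 and 80.5 CPM in WT. Grin1, the obligatory NMDA receptor subunit, was lower in vector, and at 577 and 572 CPM in WT it still lay below both NT libraries (694 and 659 CPM), with a log2 fold change of -0.24 (adjusted p 0.349, edgeR). The 48 voltage-gated channel genes had 4 higher and 5 lower calls in vector and none in WT. Their median was 0.06 in vector and -0.19 in WT, with 16 of 48 lower in WT at an unadjusted p under 0.05, against 4.56% of all genes. The list's median in WT ran from -0.20 without NT replicate 2 to -0.10 without NT replicate 1. Set directly against vector, WT had a median of -0.19 for the channels and -0.195 for the glutamate receptors. At an unadjusted p under 0.05, 18 of the 48 channels were lower and 3 higher. Of the 35 receptor genes 11 were lower and 1 higher. Over all genes 11.1% had such a p in either direction, and no member of either list was called there.

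**Figure D2:**
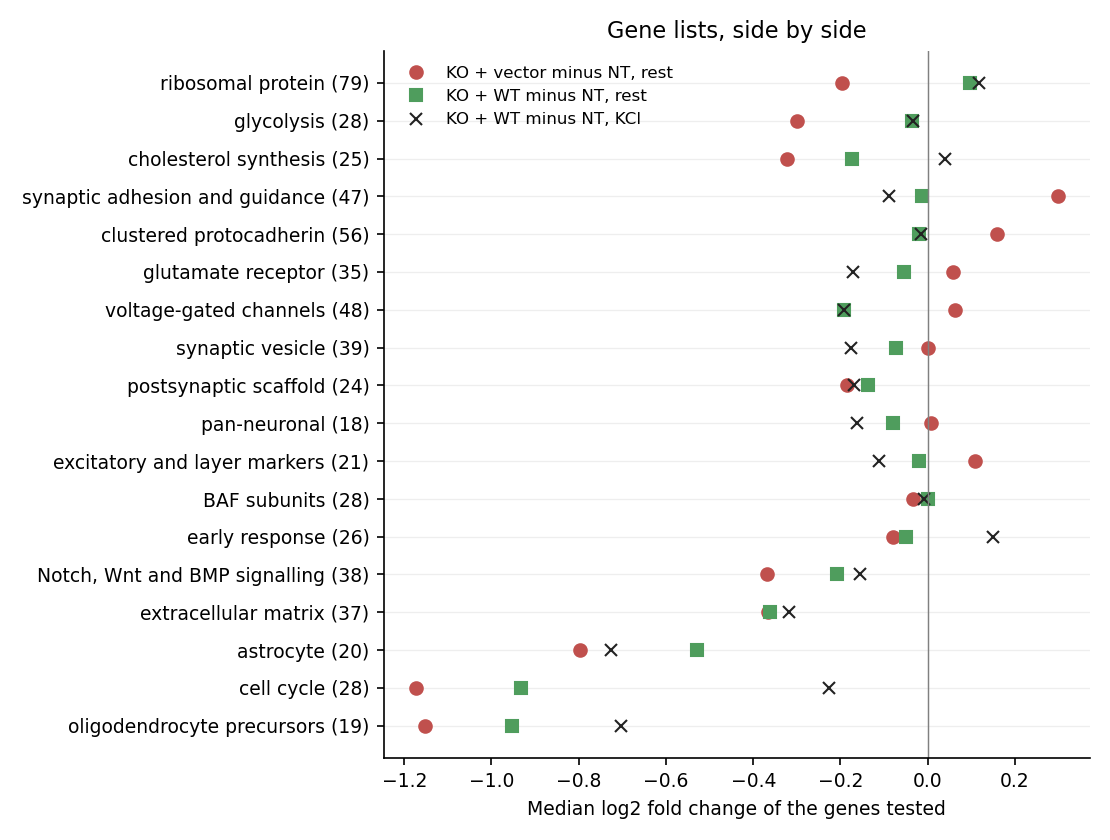
Median log2 fold change of 18 gene lists (number of genes tested in brackets) in vector against NT at rest, WT against NT at rest, and WT against NT under KCl. Ribosomal proteins, glycolysis and synaptic adhesion have WT medians between -0.04 and 0.10 at rest, while oligodendrocyte-precursor, cell cycle, astrocyte and matrix lists lie between -0.95 and -0.36.

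The protein-coding genes called lower in WT than in NT were Tns1, Plxdc1, Ackr1, Shank3, Ttyh3 and Slc36a1. Tns1 (chromosome 1, 73910231 to 74124449), a tensin that ties integrins to actin, was at 34.5 and 47.2 CPM in NT, 13.9, 15.5 and 12.1 CPM in vector, and 19.1 and 19 CPM in WT. Its log2 fold change against NT was -1.10 (SE 0.183, adjusted p 0.0177, edgeR). Every WT library lay above every vector library and far below both NT libraries. Shank3 (chromosome 15, 89499623 to 89560261), a master scaffold of the excitatory postsynaptic density, was at 317 and 338 CPM in NT, 209 to 210 CPM in vector, and 210 and 248 CPM in WT (log2 fold change -0.52, SE 0.085, adjusted p 0.0152, edgeR). One WT library was thus at the vector level and the other between the groups. Shank3 was the 1 called gene of the 24 postsynaptic scaffold genes in WT, against 0.0287% of all genes called lower. In vector 5 of the 24 were called lower, against 3.77% of all genes, and 23 lay below 0 in WT. The medians were -0.19 in vector and -0.14 in WT. Under KCl vector had 5 lower calls, against 1.95% of all genes, and WT 1, against 0.124% (medians -0.225 and -0.17).

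Plxdc1 (chromosome 11, 97923238 to 97986444), a transmembrane receptor, was at 54.0 and 49.9 CPM in NT, 28.7 to 36.2 CPM in vector, and 32.2 and 28.2 CPM in WT (log2 fold change -0.78, SE 0.139, adjusted p 0.0281, edgeR). Ackr1 (chromosome 1, 173331886 to 173333750), an atypical chemokine receptor, was at 63.6 and 58.0 CPM in NT, 37.8 to 44.9 CPM in vector, and 42.6 and 41.2 CPM in WT (log2 fold change -0.54, SE 0.098, adjusted p 0.0352, edgeR). The WT libraries of both genes lay inside the vector range, apart from 1 of Plxdc1 that was just below it. Ttyh3 (chromosome 5, 140620578 to 140649031), a member of the tweety family of membrane proteins, was at 390 and 386 CPM in NT, 239 to 258 CPM in vector, and 292 and 279 CPM in WT (log2 fold change -0.44, SE 0.076, adjusted p 0.0221, edgeR). Its WT libraries lay between the other groups and overlapped neither. Slc36a1 (chromosome 11, 55204350 to 55236330), a proton-coupled amino acid transporter, was at 91.0 and 81.5 CPM in NT, 72.7 to 77.2 CPM in vector, and 64.3 and 63.7 CPM in WT (log2 fold change -0.43, SE 0.081, adjusted p 0.0397, edgeR). It was the only one of the 6 that was not called in vector (log2 fold change -0.19, adjusted p 0.135, edgeR), and its WT libraries lay below all vector libraries, with a log2 fold change of -0.24 between WT and vector (unadjusted p 0.00465, not called by edgeR).

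These 6 calls depended on which libraries were fitted. None of the 6 passed when the other groups were left out of the fit (adjusted p 0.0552 to 0.158, edgeR), and only Tns1 and Plxdc1 passed with GC offsets. With 1 library left out, Shank3 passed only without WT replicate 2 and Tns1 only without NT replicate 1, and the other 4 in no such fit (adjusted p 0.139 to 0.458, edgeR). Astrocyte and oligodendrocyte-precursor markers, given next, were lower in the same WT libraries, and their part in these genes was not tested. Kndc1, Gpm6b, Rab31 and Lrp1 stood just outside the threshold. Both WT libraries lay above every vector library for Kndc1, Gpm6b and Rab31, while WT lay mostly below vector for Lrp1. The log2 fold change against NT was -0.419 for Gpm6b and -0.615 for Rab31 (adjusted p 0.0512 and 0.0521, edgeR). Kndc1, an exchange factor for Ras that is abundant in neurons, was at 147 and 144 CPM in NT, 82.2 to 92.7 CPM in vector, and 101 and 103 CPM in WT (log2 fold change -0.51, adjusted p 0.0512, edgeR). Lrp1, the large endocytic receptor for lipoproteins, was at 641 and 664 CPM in NT, 444 to 553 CPM in vector, and 399 and 465 CPM in WT (log2 fold change -0.60, adjusted p 0.0622, edgeR).

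**Figure D3:**
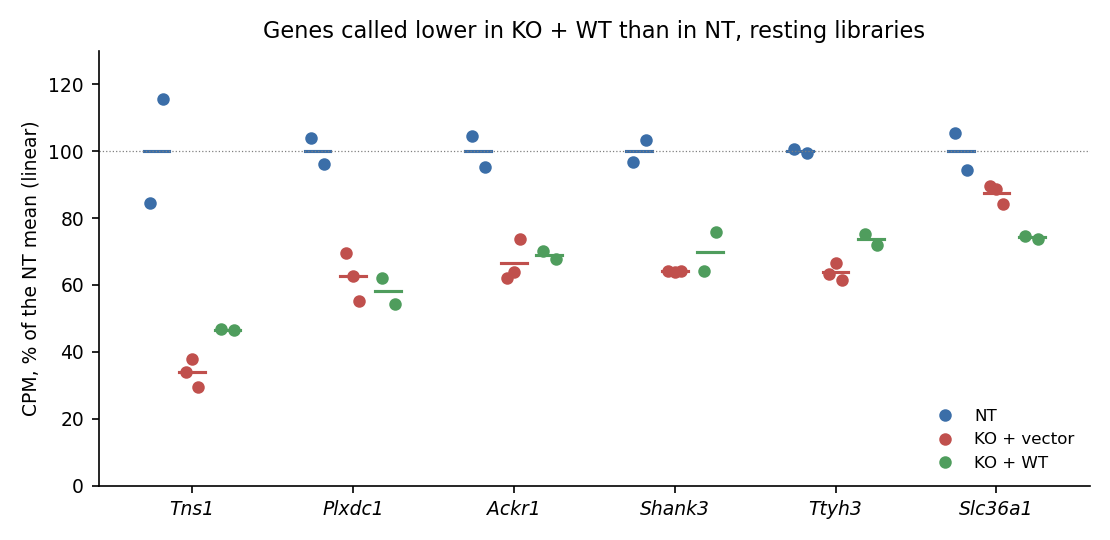
The 6 protein-coding genes called lower in WT than in NT at rest, as a percentage of the NT mean CPM on a linear axis from 0. Points are libraries and bars their means. Tns1 lies lowest in WT, and Slc36a1 is the gene whose WT libraries lie below its vector libraries.

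Markers of oligodendrocyte precursors, the dividing glial cells that give rise to myelinating cells, were low in WT as in vector. All 19 tested lay below 0 in WT, 12 of them at an unadjusted p under 0.05, against 4.56% of all genes. None was called in WT, while 6 were called lower in vector, against 3.77% of all genes. The median was -0.95 in WT and -1.15 in vector, and 0.05 for WT against vector. With 2 members that were at 0 in all vector libraries set to a bound of 3 counts, the vector median was unchanged. In bulk RNA, fewer such cells and less RNA per cell cannot be told apart. Pdgfra, the growth factor receptor of these cells, was at 19.7 and 30.3 CPM in NT, 0.0637 to 1.00 CPM in vector, and 2.13 and 1.76 CPM in WT (log2 fold change -3.68, SE 0.793, adjusted p 0.101, edgeR). Sox10, the lineage's transcription factor, was at 2.76 and 8.4 CPM in NT, at 0 in all 3 vector libraries, and at 0.142 and 0.617 CPM in WT. Cspg4, the proteoglycan NG2, was at 13.9 and 21.3 CPM in NT, 2.04 to 3.27 CPM in vector, and 5.50 and 4.70 CPM in WT. All WT libraries lay above all vector libraries and below both NT libraries for these 3 genes. DESeq2 called them (adjusted p 0.0408, 0.00607 and 0.00436). Under KCl the NT libraries held 1.42 and 13.5 CPM of Pdgfra and the WT libraries 0.492 to 3.15 CPM, so NT cultures differed widely among themselves.

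Cell cycle genes, which mark dividing cells in these mixed cultures, gave similar values. Of 28 genes, 10 were called lower in vector, against 3.77% of all genes, and none in WT. At an unadjusted p under 0.05, 13 lay lower in WT, against 4.56% of all genes. The medians were -1.17 and -0.93, with 0.26 between WT and vector. Mki67, a protein of dividing nuclei, was at 7.52 and 16.1 CPM in NT, 0.317 to 1.53 CPM in vector, and 1.76 and 1.33 CPM in WT (log2 fold change -2.93, adjusted p 0.195, edgeR). Top2a, the topoisomerase of dividing cells, was at 5.52 and 9.50 CPM in NT and 0.996 and 1.85 CPM in WT. NT replicate 2 was the highest library for both, and without it the list's median in WT was -0.35 (-1.36 without NT replicate 1). Under KCl the list's median was -0.23.

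Astrocyte markers lay between. Of 20 genes, 5 were called lower in vector, against 3.77% of all genes, and none in WT. In WT 19 lay below 0, and the medians were -0.80 in vector and -0.53 in WT, with 0.25 for WT against vector. The summed level of the list was 3372 and 3484 CPM in NT, 1762 to 2644 CPM in vector, and 2502 and 2330 CPM in WT. Apoe, the lipoprotein that astrocytes secrete, was at 396 and 620 CPM in NT, 68.7 to 224 CPM in vector, and 264 and 301 CPM in WT. Slc1a2, the glial glutamate transporter, was at 1250 and 1070 CPM in NT, 714 to 931 CPM in vector, and 801 and 665 CPM in WT (log2 fold change -0.66, adjusted p 0.0933, edgeR). WT stood above every vector library for Apoe, and at or below the vector range for Slc1a2.

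The extracellular matrix list had the same median, -0.36, in vector and in WT. Its 37 genes had 1 higher and 8 lower calls in vector, against 2.13% and 3.77% of all genes, and none in WT. In WT 8 lay lower at an unadjusted p under 0.05, against 4.56% of all genes. Set directly against vector, WT had a median of 0.18, with 21 of 37 genes above 0. Ncan, a proteoglycan of the brain matrix, was at 669 and 777 CPM in NT, 334 to 463 CPM in vector, and 475 and 495 CPM in WT (log2 fold change -0.58, adjusted p 0.132, edgeR). Bcan, a related proteoglycan that is also on the precursor list, was at 51.7 and 56.3 CPM in NT, 21.2 to 26.9 CPM in vector, and 30.7 and 35.1 CPM in WT (log2 fold change -0.71, adjusted p 0.101, edgeR). Signalling genes of the Notch, Wnt and BMP pathways had 1 higher and 6 lower calls among 38 in vector and none in WT. The vector shares over all genes were 2.13% and 3.77%. The list's medians were -0.37 in vector and -0.21 in WT (-0.08 without NT replicate 2).

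**Figure D4:**
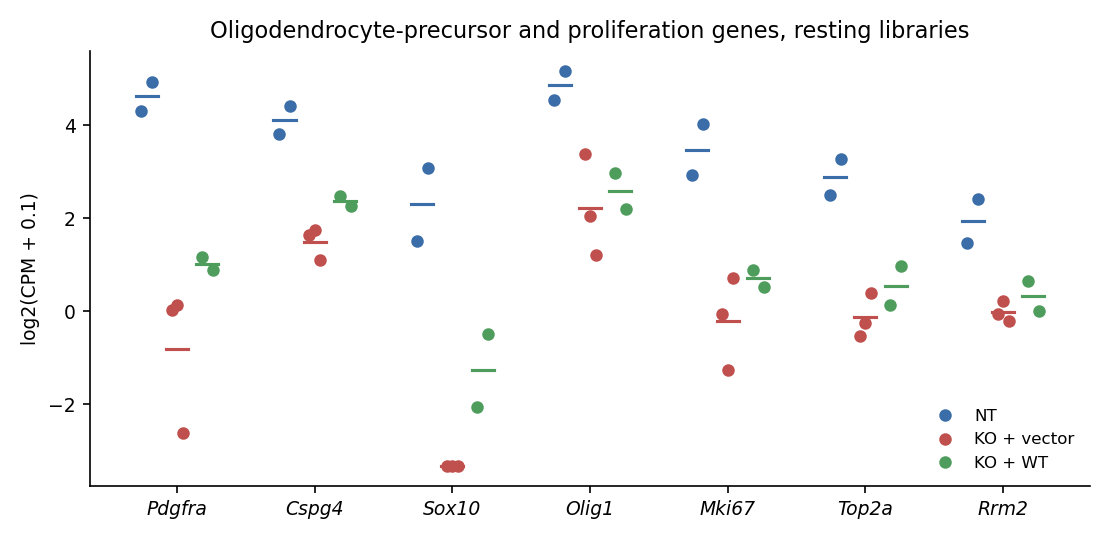
Oligodendrocyte-precursor genes (Pdgfra, Cspg4, Sox10, Olig1) and proliferation genes (Mki67, Top2a, Rrm2) in resting libraries, as log2 of CPM plus 0.1. Points are libraries and bars the means of the log values. WT libraries lie below both NT libraries for every gene shown, and the 3 vector libraries of Sox10 are at 0 CPM.

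Markers of neuronal identity and genes of the chromatin machinery were read in the same way. At rest, the 18 pan-neuronal markers had no call in vector or WT (medians 0.01 and -0.08). Their summed resting levels were 6780 and 6282 CPM in NT and 6474 and 6123 CPM in WT. Vector had 3 lower calls among these markers under KCl, against 1.95% of all genes, with a median of -0.19. WT had no call among them under KCl, with a median of -0.16, so their medians lay further below NT there than at rest. Of the 28 BAF subunit genes, Smarcc2 was the only call in WT, and 3 were called higher and 2 lower in vector, of which Smarcc2 was 1 of the lower. The higher calls are a larger share than the 2.13% of all genes called higher in vector. Since the lower calls include the gene that was knocked out, their share cannot be read against the 3.77% of all genes. Arid1a, which defines the canonical complex, was at 186 and 175 CPM in NT, 196 to 271 CPM in vector, and 190 and 191 CPM in WT. The 31 CHD remodeller and Polycomb genes had 3 higher calls in vector, again above the 2.13% of all genes, and none in WT. Under KCl vector had no higher call in the BAF list or in this one (medians -0.016 and 0.064), so the higher calls were seen at rest only. Chd6, a CHD remodeller, was at 114 and 107 CPM in NT, 139 to 147 CPM in vector, and 117 and 105 CPM in WT. Its vector libraries stood apart from both other groups, which overlapped. The 26 early activity-response genes had medians of -0.08 in vector and -0.05 in WT. They had 2 higher calls in vector, against 2.13% of all genes, and none in WT. Under KCl vector had no call among them.

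The largest group of calls was of another kind. Besides Smarcc2, all 15 genes called higher in WT were noncoding, 13 of them processed pseudogenes, which are intronless copies of messenger RNAs that were written back into the genome. The other 2 were Rprl2, annotated as a ribozyme, and Gm25395, a small Cajal body RNA. WT had 13 higher and no lower calls among the 618 processed pseudogenes tested, against 0.0764% and 0.0287% of all genes. At an unadjusted p under 0.05, 84 were higher and 5 lower, against 3.32% and 4.56% of all genes. Their median was 0.17. Their coding counterparts by sequence were Hnrnpa1 (for Gm10052 and Gm5643), Eef1a1 (Gm12912 and Gm49017), Rps6 (Gm16409 and Gm14172), Npm1 (Gm14776 and Gm17060), Rps3a1 (Gm13408), Rpl7 (Gm15159), Rpl6 (Gm6136), Rpl3 (Gm9644) and Nudc (Nudc-ps1). None of these 9 genes was called in WT (log2 fold changes -0.03 to 0.39).

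How far a read can tell the copies apart varied. Gm10052 was identical to Hnrnpa1 over all its 960 bases and held no stretch of 31 bases of its own, so its level is only the estimate of the authors' program. The share of 31-base stretches found in no other annotated transcript ran from 0% to 96.6% over the 13, with a median of 61.6%, against 35.0% over all 618. A window of 60 bases is shown for 2 pairs, from the GENCODE M21 transcripts on GRCm38, 5′ to 3′, to show how few bases can separate them. Capitals mark the bases that differ. Gm16409 is on chromosome 14 (73796544 to 73797290) and Rps6, a ribosomal protein of the small subunit, on chromosome 4. Gm5643 is on chromosome X (142297565 to 142298530) and Hnrnpa1, an RNA-binding splicing factor, on chromosome 15.
Gm16409: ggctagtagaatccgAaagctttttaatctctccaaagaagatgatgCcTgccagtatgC
Rps6: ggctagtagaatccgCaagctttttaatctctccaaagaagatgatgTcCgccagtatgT
Gm5643: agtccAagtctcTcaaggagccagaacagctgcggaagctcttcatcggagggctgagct
Hnrnpa1: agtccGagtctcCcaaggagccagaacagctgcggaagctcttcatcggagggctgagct
Gm16409 was 98.7% identical to Rps6 over its 747 bases, and Gm5643 98.7% identical to Hnrnpa1 over 955 aligned bases.

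Gm9644, the pseudogene with the smallest p, was at 1.02 and 0.688 CPM in NT, 4.06 to 9.68 CPM in vector, and 6.69 CPM in both WT libraries (log2 fold change 2.96, SE 0.375, adjusted p 0.00271, edgeR). Its look-alike Rpl3, of the large ribosomal subunit, had a log2 fold change of 0.39 (SE 0.167, adjusted p 0.565, edgeR). Gm5643 was at 1.06 and 0.688 CPM in NT, 4.22 to 11.1 CPM in vector, and 6.97 and 6.22 CPM in WT. Gm16409 was at 0.0425 and 1.70 CPM in NT, 7.58 to 9.18 CPM in vector, and 10.5 and 8.36 CPM in WT. For each of the 3 the WT libraries lay at the vector level and above every NT library.

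Summed over the 13, the level was 10.1 and 13.3 CPM in resting NT, 66.6 to 102 CPM in vector, and 84.0 and 63.8 CPM in WT. Across all 20 libraries grown for 18 days, the 4 NT libraries held 10.1 to 20.5 CPM and the 16 libraries with the Smarcc2 guide 55.5 to 112 CPM, whichever construct they carried and in either state. The 2 depolarized NT libraries and the 14 libraries with the guide other than resting WT were no part of the contrast that called these genes, though they entered the joint fit through its filter and its shared spread. In them all 13 pseudogenes were apart between the groups, against 1.73% of all genes tested in that direction. Some of the 13 were near 0 in NT, such as Gm14172 and Gm15159 with 4 counts each over the resting NT libraries. Such genes passed the filter only through the libraries where they are high. Their separation is therefore not independent of how they entered the tests, and no conclusion is drawn from it. Of the 6 genes called lower, 5 were apart in the same libraries, against 2.79% of all genes, the exception being Slc36a1. No pseudogene was called for WT against vector. With the other groups left out of the fit, 3 of the 13 passed (Gm9644, Gm5643 and Gm6136). Over the alternative analyses the log2 fold change ran from 2.71 to 3.27 for Gm9644 and from 2.47 to 7.60 for Gm16409. All 618 processed pseudogenes tested summed to 4739 and 4682 CPM in resting NT, 4556 to 5084 CPM in vector, and 5348.5 and 4851 CPM in WT. The wells, transductions and embryos behind the NT and the knockout cultures are not described in the labels, so the guide and the culture cannot be told apart.

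**Figure D5:**
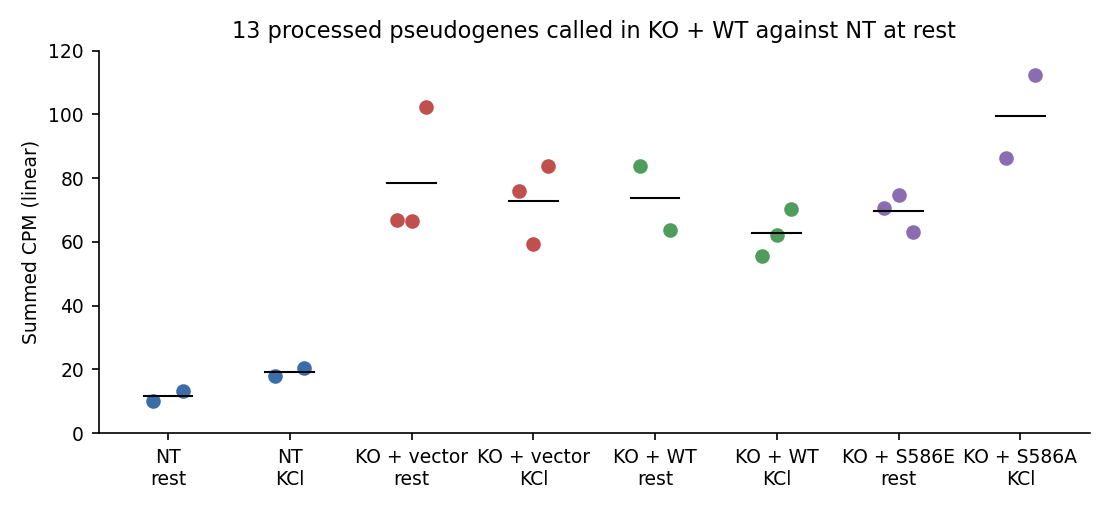
Summed CPM of the 13 processed pseudogenes called in WT against NT at rest, in all 20 libraries grown for 18 days (linear axis from 0). Points are libraries and bars group means. The 4 NT libraries lie between 10.1 and 20.5 CPM and the 16 libraries with the Smarcc2 guide between 55.5 and 112 CPM.

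The depolarized cultures gave a second reading of WT against NT in other libraries. There WT and NT differed in 42 genes (0.201%), with 16 higher (0.0764%) and 26 lower (0.124%) in WT. This split was 23 and 254 with DESeq2, and 7 and 2 with GC offsets. Smarcc2, the gene added back, is left out of this reading. The 21 other genes called at rest all had the same direction under KCl. There 9 of them were called, against 0.201% of all genes, and all 21 had an unadjusted p under 0.05, against 11%. Of the 6 genes called lower at rest, 3 were called under KCl. The 13 processed pseudogenes among the 21 made up 6 of the calls. For them the limit of the filter given above holds here too, and no conclusion is drawn from them. Shank3 was at 297 and 283 CPM in depolarized NT and 214 to 219 CPM in depolarized WT (log2 fold change -0.42, adjusted p 0.0314, edgeR), and Tns1 at 34.2 and 35.2 CPM and 15.9 to 20.2 CPM (log2 fold change -0.90, adjusted p 0.0314, edgeR). The difference between states was tested for each gene, and edgeR called none (0.0%), with 620 genes (2.96%) at an unadjusted p under 0.05. DESeq2 called none either. Without any 1 of the depolarized libraries, the 42 calls became 1 to 9.

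Genes that differ between vector and NT were also chosen from the contrast under KCl, in the joint fit that holds the resting libraries too. In that contrast vector differed from NT in 560 genes (2.67%), 152 higher (0.726%) and 408 lower (1.95%). At rest, the 407 lower genes other than Smarcc2 had a median of -0.35 in vector and -0.27 in WT, and 0.09 for WT against vector, where 68.6% lay above 0 against 48.3% of all genes. For the 152 higher genes the medians were 0.51, 0.31 and -0.09, and 67.1% lay below 0 for WT against vector, against 51.7% of all genes. On this choice WT at rest lay closer to vector than to NT in its medians. The medians of vector and WT share the resting NT libraries, and the guide and the culture cannot be told apart here either. The 31 processed pseudogenes among the higher genes had medians of 2.76 in vector and 2.42 in WT, and the 114 protein-coding ones 0.36 and 0.26. Same-numbered vector cultures deviated together in both states, so the choice is not wholly independent of the resting vector values.

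Lars2, the mitochondrial leucyl-tRNA synthetase, which is on the list of genes that hold sequence like ribosomal RNA, was highest in the 2 resting WT libraries of all 20. It was at 590 and 280 CPM there, 47.2 and 37.2 CPM in NT, 34.8 to 62.6 CPM in vector, and 30.5 to 44.1 CPM in depolarized WT. Single libraries of other groups were high too, with 229 CPM in 1 of 3 resting libraries with the mutant S586E, 185 CPM in 1 of 2 depolarized ones with S586A and 131 CPM in 1 of 3 depolarized vector libraries. The difference from NT did not pass (log2 fold change 3.36, SE 0.736, adjusted p 0.101, edgeR), though it did in 5 of 13 alternatives, DESeq2 among them. The share of counts in the annotation class misc_RNA was 11.7% and 8.64% in WT, 6.89% and 6.99% in NT, and 7.81% to 8.97% in vector. WT replicate 1 was the highest library in both measures, and the part of such RNA in the value of Lars2 was not tested.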

How the data were processed

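Total RNA depleted of ribosomal RNA was sequenced as paired-end libraries, per the labels' protocols, which do not say which library ran on which instrument. The submitters' processing notes name FastQC, cutadapt and kallisto, and the genome build and annotation are not given in the sources used here. Per the file headers, the authors deposited for each transcript an estimated count, a TPM value and an effective length. Estimated counts of the 142552 transcripts were matched to GENCODE M21 on GRCm38 (99.2% matched, and the unmatched held at most 0.441% of a library), summed per gene and rounded. Deposited TPM values were used for marker levels and as weights, and the deposited effective lengths only for offsets.

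The 20 libraries of 18 days in 8 groups (14510199 to 24024959 estimated counts) were fitted together with edgeR 4.0.16 in R 4.3.3 (TMM, filterByExpr, quasi-likelihood F test, two-sided, Benjamini-Hochberg). The fit had 12 residual degrees of freedom and a common biological coefficient of variation of 14.6%, so that 2 libraries a group limit the precision. Alternatives used DESeq2 1.42.0 and the settings given in the closing section. The test was checked on simulated counts. Look-alikes of pseudogenes were found with blastn 2.17.0.

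The genes and the 33 lists were chosen with earlier results of these data known. Named genes were Smarcc2, Smarcc1, Pgk1 and Lars2, the genes called in WT against NT at rest and those of next smallest p, per list up to 4 genes called in vector, the largest called changes of vector against NT in each state, and the genes called in WT against vector. Those printed are the ones that describe a list or a call. Look-alikes and Smarcc2 transcripts were chosen after their values were seen. Replicate numbers were checked for pairing. Correlations of deviations were 0.186 for both pairs of WT and NT at rest, and the labels do not say what a number marks. The 4 DIV7 libraries, from poly(A)-selected RNA, were not used here.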

Additional observations from a re-analysis of the deposited data

How the results depend on the processing

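The 22 calls of WT against NT at rest numbered 115 with DESeq2, 378 without the filter on low counts and 17 when only the groups compared were fitted (4 of them among the 22), and ran from 2 to 17 with 1 library left out. The 1236 calls of vector against NT became 2016 without the filter, 682 with effective-length offsets and 225 with only the groups compared, and ran from 100 to 1031 with 1 library left out. WT against vector (3 calls) gave 178 with DESeq2, 605 without the filter, and 2 to 23 with 1 library left out. Under KCl (42 calls) the count was 277 with DESeq2, 704 without the filter, 13 with length offsets, 5 with only the groups compared, 9 with GC offsets, and 1 to 9 with 1 library left out. The difference between states (no call with edgeR or DESeq2, 620 genes at an unadjusted p under 0.05) gave 145 calls without the filter and 0 or 1 with 1 library left out. The cause of these changes was not tested, beyond the fewer samples of the fits that leave samples out. The medians of the genes chosen under KCl became -0.578 and 1.776 when a log2 fold change of at least 1 was asked for.

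Numbered replicates were also fitted as a block. With the replicate block, WT against NT at rest gave 65 calls, 27 higher and 38 lower (41 with GC offsets and the block), WT against vector 36, and WT against NT under KCl 85 (25 with GC offsets and the block), and the difference between states still gave 0. The labels do not say what a number marks. Deviations of same-numbered resting and depolarized NT libraries correlated at -0.146, and with those numbers crossed, an alternative chosen after seeing the data, the difference between states gave 0 calls.

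The direction of these named genes in WT against NT, all uncalled, turned with the processing. With effective-length offsets Fras1 was at 0.007. With 1 library left out, Grm7 ran from -0.018 to 0.315, Chd6 from -0.067 to 0.089, Slc2a1 from -0.627 to 0.281, Pfkl from -0.612 to 0.065, Rpl13 from -0.036 to 0.231, and Rps26 from -0.184 to 0.144. With 2 libraries in each group, the number of libraries limits the precision of every value.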

Other observations

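Noncoding classes of the annotation had different medians in vector and WT at rest. The 1546 genes of the class TEC (transcripts to be experimentally tested) had a median log2 fold change of 0.32 in vector against NT and -0.02 in WT against NT at rest, but 0.40 in WT against NT under KCl. The 1085 lincRNAs had medians of 0.18, 0.03 and 0.15, and the 944 antisense genes 0.22, 0.02 and 0.17. No gene of these classes was called in WT at rest against NT or against vector. The share of counts in TEC genes was 0.194% to 0.3% in the vector libraries, which spanned the 0.203% and 0.215% of NT. The 13 transcripts of the mitochondrial genome summed to 38960 and 35020 CPM in NT, 38580 and 39110 CPM in WT and 29380 to 54560 CPM in vector.

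The 24 interneuron markers had medians of 0.24 in vector and 0.06 in WT at rest, and -0.49 in WT under KCl. Their summed level was 977 and 711 CPM in resting NT and 1082 and 794 CPM in resting WT, so the libraries of each group differed more than the groups. The 7 microglial genes tested summed to 30.1 and 28.4 CPM in NT and 30.3 and 34.0 CPM in WT.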
